A study of Mus musculus with 24 samples.

Results

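The genes described here encode the proteasome: the subunits of its core and of its regulatory particles, its activators, its inhibitor and its assembly chaperones. They were chosen by symbol, as every named probe set whose single gene symbol is Psma, Psmb, Psmc, Psmd, Psme, Psmf or Psmg followed by a number. This gave 46 genes, 1 probe set each, among 23281 probe sets with 1 symbol and 24479 probe sets in all. Of these, 43 lay above the array median on at least 3 arrays and entered the tests beside 14064 genes in total, these 43 included. Each of the 43 lay above the median on all 24 arrays. Psma5, Psma8 and Psmb11 did not enter, and Psmb3 and Psmb5 were not analysed here.

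RNA was measured on 24 one-colour mouse gene arrays, 3 for each of 8 groups. Satellite cells, the muscle stem cells, were sorted by flow cytometry as CD45-, Sca1-, CD31-, alpha7integrin+ cells with positive or low CD34, taken from the tibialis anterior, either uninjured (day 0) or collected 2, 4 or 8 days after injection of cardiotoxin, a venom toxin that destroys muscle fibres. Endothelial cells, the lining of blood vessels, were sorted as CD45-, Sca1+, CD34+, CD31+ cells from uninjured muscle and on the same 3 days after injury. The labels name no strain, genotype, age or sex, and call the 3 arrays of a group biological replicates without saying whether animals were pooled, so each p-value measures the spread between these samples. Values are on a log2 scale, where a difference of 1 is a 2-fold difference.

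The proteasome is the barrel-shaped protease that degrades proteins tagged with ubiquitin. Alpha subunits form the outer rings of the core and gate its entry, beta subunits form the inner rings that hold the active sites, and a regulatory particle of ATPase and non-ATPase subunits recognises, unfolds and feeds in the substrate. Interferon-gamma induces 3 alternative catalytic subunits, Psmb8, Psmb9 and Psmb10, which replace Psmb5, Psmb6 and Psmb7 in newly built cores to form the immunoproteasome, and the activator PA28, made of Psme1 and Psme2. Immune cells carry the immunoproteasome without stimulation, and its peptides are loaded onto MHC class I molecules.

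The sorted cells were checked against markers before the members were compared. Pax7, the transcription factor of satellite cells, was at 4.67, 5.70 and 5.16 on the satellite cell arrays of day 2, a range that overlapped the 5.10, 4.36 and 4.22 of endothelial cells on that day. The mean of 9 satellite cell markers was 5.45, 5.44 and 5.15 on the satellite cell arrays of day 2 and 8.63, 8.48 and 8.56 on those of day 0. Unlike Pax7, this mean did not overlap on day 2 with that of the endothelial arrays, at 4.46, 4.02 and 4.14. The mean of 17 tested leukocyte markers was 10.44, 8.89 and 10.39 in satellite cells on day 2, and 4.19, 3.71 and 3.87 on day 0. Ptprc, which encodes CD45, the antigen used to exclude leukocytes, was at 9.82, 8.01 and 9.67 in satellite cells on day 2 and 3.13, 2.97 and 2.81 on day 0. The arrays labelled satellite cells on day 2 therefore go against their label for these genes, and every satellite cell value of day 2 given here is that of the arrays so labelled. Satellite array 2 of day 2 also had the highest mean of 10 endothelial markers in its cell type, 8.80, against 6.79 and 7.12 on the other arrays of that group. Endothelial array 3 of day 0 stood apart in a list of 14 interferon pathway genes, with a mean of 8.56 against 7.56 and 7.34. Counts are also given without these 2 arrays. The mean of 9 pericyte and smooth muscle markers was 9.56, 10.28 and 10.23 on the satellite cell arrays of day 0. On those of day 2 it was 6.50, 8.15 and 6.54. The mean of 6 fibro-adipogenic markers was 7.12, 7.34 and 7.10 on the satellite cell arrays of day 0. For 6 myofibre markers it was 7.40, 6.82 and 7.44 there, and 7.79, 10.43 and 10.41 on day 8. The part of these cells in the results was not tested. In bulk samples, fewer cells of a type and less RNA per cell cannot be told apart.

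The start regions of 5 members are shown as examples. Psmb8, Psmb9 and Psme1 were higher on the arrays labelled satellite cells of day 2 than on day 0. Psme2 is the partner of Psme1, and Psmd14 was higher on day 2 under both cell type labels. Psmb10 was also higher on those satellite cell arrays and is not shown. Each sequence is the 250 bases before the annotated transcription start on the gene's own strand, from RefSeq (GRCm38.p6). Capitals mark matches on either strand to TTCNNNGAA (gamma-activated sequence), GGGCGG (GC box) and the box named after its letters, CCAAT.
Psmb8 (chr17:34197945-34198194, + strand): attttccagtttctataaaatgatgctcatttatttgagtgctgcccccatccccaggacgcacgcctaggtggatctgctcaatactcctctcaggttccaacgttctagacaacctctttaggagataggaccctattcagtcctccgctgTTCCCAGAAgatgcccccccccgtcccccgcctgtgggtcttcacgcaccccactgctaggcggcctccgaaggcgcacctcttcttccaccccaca
Psmb9 (chr17:34187331-34187580, - strand): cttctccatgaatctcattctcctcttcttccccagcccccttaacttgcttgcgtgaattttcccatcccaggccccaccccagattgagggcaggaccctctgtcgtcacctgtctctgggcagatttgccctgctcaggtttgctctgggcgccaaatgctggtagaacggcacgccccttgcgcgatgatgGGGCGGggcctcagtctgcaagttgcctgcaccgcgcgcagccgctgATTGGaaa
Psme1 (chr14:55578244-55578493, + strand): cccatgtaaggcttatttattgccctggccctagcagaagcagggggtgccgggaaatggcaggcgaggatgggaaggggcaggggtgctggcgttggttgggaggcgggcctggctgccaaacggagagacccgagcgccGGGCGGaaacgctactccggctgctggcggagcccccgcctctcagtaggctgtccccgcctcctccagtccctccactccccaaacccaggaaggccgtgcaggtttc
Psme2 (chr14:55591102-55591351, - strand): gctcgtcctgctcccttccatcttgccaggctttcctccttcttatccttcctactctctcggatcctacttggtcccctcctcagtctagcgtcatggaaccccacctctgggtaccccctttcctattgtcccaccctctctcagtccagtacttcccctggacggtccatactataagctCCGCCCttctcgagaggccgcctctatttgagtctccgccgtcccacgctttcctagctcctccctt
Psmd14 (chr2:61711444-61711693, + strand): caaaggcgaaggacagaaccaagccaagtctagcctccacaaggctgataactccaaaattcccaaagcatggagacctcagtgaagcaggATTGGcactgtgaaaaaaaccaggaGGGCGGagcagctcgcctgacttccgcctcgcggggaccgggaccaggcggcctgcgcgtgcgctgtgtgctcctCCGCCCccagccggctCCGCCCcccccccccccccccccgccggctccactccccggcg

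Psmb8 holds a TTCNNNGAA match at positions -97 to -89 before its start, and Psmb9 holds a GC box and a CCAAT box. The windows of Psmb9 and Tap1, which encodes a subunit of the peptide transporter, lie head to head and share 275 of their 300 bases. In the order of coding genes on chromosome 17, Psmb9 lies next to Tap1, and Psmb8 lies between Tap1 and Tap2. On chromosome 14, Psme1 and Psme2 are separated by a single coding gene, Emc9. Windows of 300 bases, 250 before and 50 after the start, were found for 38 of the 46 members, 41 windows in all. GC boxes were in 24 of the 41 windows (58.5%), against 35.7% of all 32851 windows. TTCNNNGAA was in 3 of the 41 windows (7.32%), against 8.3% of all windows. The interferon response element core, GAAA and GAAA with 2 bases of any kind between them, was in 4 (9.76%), against 3.44%. The Psme1 window holds such a core at positions 10 to 19 after the start, outside the sequence shown. CCAAT was in 13 (31.7%), against 37.4%, and the antioxidant response element core TGACNNNGC was in 5 (12.2%), against 12.4%. A match describes letters in the window and is not evidence of binding.

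On day 2, 4 of the 5 interferon-inducible members were higher on the arrays labelled satellite cells than on those of day 0: the catalytic subunits Psmb9 (9.48-fold), Psmb8 (5.95-fold) and Psmb10 (3.68-fold), and the PA28 subunit Psme1 (1.92-fold). Among all 14064 genes tested, 14.7% passed as higher in that comparison and 13.5% as lower. Psmb9 was at 9.92, 9.59 and 9.99 on day 2 and 6.10, 7.24 and 6.43 on day 0, so all day 2 arrays lay above all day 0 arrays (log2 difference 3.25, SE 0.31, adjusted p = 1.06e-07, limma's moderated test with Benjamini-Hochberg adjustment). Psmb8, which has chymotrypsin-like activity in the immunoproteasome, was at 7.95, 7.78 and 8.43 on day 2 and 5.40, 5.68 and 5.37 on day 0, again with no overlap (log2 difference 2.57, SE 0.29, adjusted p = 1.19e-06). Psmb10 replaces the trypsin-like subunit Psmb7. It was at 8.34, 8.47 and 9.20 on day 2 and 6.64, 7.06 and 6.67 on day 0, with no overlap (log2 difference 1.88, SE 0.29, adjusted p = 4.38e-05). Psme1 was at 9.66, 9.40 and 9.79 on day 2 and 8.52, 8.72 and 8.78 on day 0, with no overlap (log2 difference 0.94, SE 0.23, adjusted p = 0.00395). These 4 calls held when each of the 24 arrays was left out in turn, and the differences then ran from 3.00 to 3.57 for Psmb9, 2.39 to 2.71 for Psmb8, 1.61 to 2.04 for Psmb10 and 0.86 to 1.05 for Psme1. Leukocyte markers were higher on the same arrays, 16 of 19 of them lying above the array median on all 3 arrays of day 2 against 2 of 19 on day 0, and their part in the result was not tested.

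In satellite cells 2 of 5 inducible members were higher on day 4 than on day 0 (Psmb9 and Psmb8), against 9.34% of all genes, and 1 of 5 on day 8 (Psmb9), against 5.87%. Psmb9 was at 8.57, 9.17 and 9.01 on day 4 and 7.53, 8.40 and 7.90 on day 8, each range above that of day 0 (log2 difference 2.33, SE 0.31, adjusted p = 1.57e-05 on day 4, log2 difference 1.36, SE 0.31, adjusted p = 0.0063 on day 8). Psmb8 was at 6.94, 7.15 and 6.86 on day 4 (log2 difference 1.51, SE 0.29, adjusted p = 0.00102) and at 5.98, 6.56 and 6.61 on day 8 (log2 difference 0.90, SE 0.29, adjusted p = 0.0608). It passed on day 4 and did not pass on day 8. On day 8 all 3 arrays lay above those of day 0. The call was made when satellite array 2 of day 2 and endothelial array 3 of day 0 were left out (adjusted p = 0.0143). Neither array belongs to the groups compared, and both were chosen after seeing the data, so that pass adds no support. Psmb10 differed from day 0 by 0.63 on day 4 (SE 0.29, adjusted p = 0.155) and Psme1 by 0.63 (SE 0.23, adjusted p = 0.0678). Between day 4 and day 2, Psmb10 fell by 1.25 (SE 0.29, adjusted p = 0.00536) and Psmb8 fell by 1.07 (SE 0.29, adjusted p = 0.0177). With the activator Psme3, 3 of 43 members were lower on day 4 than on day 2 and 0 higher, against 7.21% of all genes lower and 6.51% higher. The Psmb8 call was lost without satellite array 3 of day 2 or satellite array 3 of day 4, with adjusted p up to 0.104. The leukocyte marker means were 7.86, 7.21 and 6.72 on day 4 and 6.27, 5.03 and 6.08 on day 8 in satellite cells. On day 0 they were 4.19, 3.71 and 3.87. Of 19 leukocyte markers, 15 lay above the array median on all satellite cell arrays of day 4 and 11 on those of day 8, against 2 on day 0. Their part in these results was not tested.

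Psme2, the other subunit of PA28, did not pass in any comparison. In satellite cells it was at 6.61, 7.37 and 7.16 on day 0, 6.95, 7.07 and 6.35 on day 2, 6.48, 6.70 and 6.36 on day 4 and 6.54, 6.90 and 6.13 on day 8. The ranges overlapped on days 0 and 2, and the day 2 difference was -0.25 (SE 0.32, adjusted p = 0.612). Its probe set is uncertain, since a near-identical copy, Psme2b, is listed in the reference gene table.

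**Figure D1:**
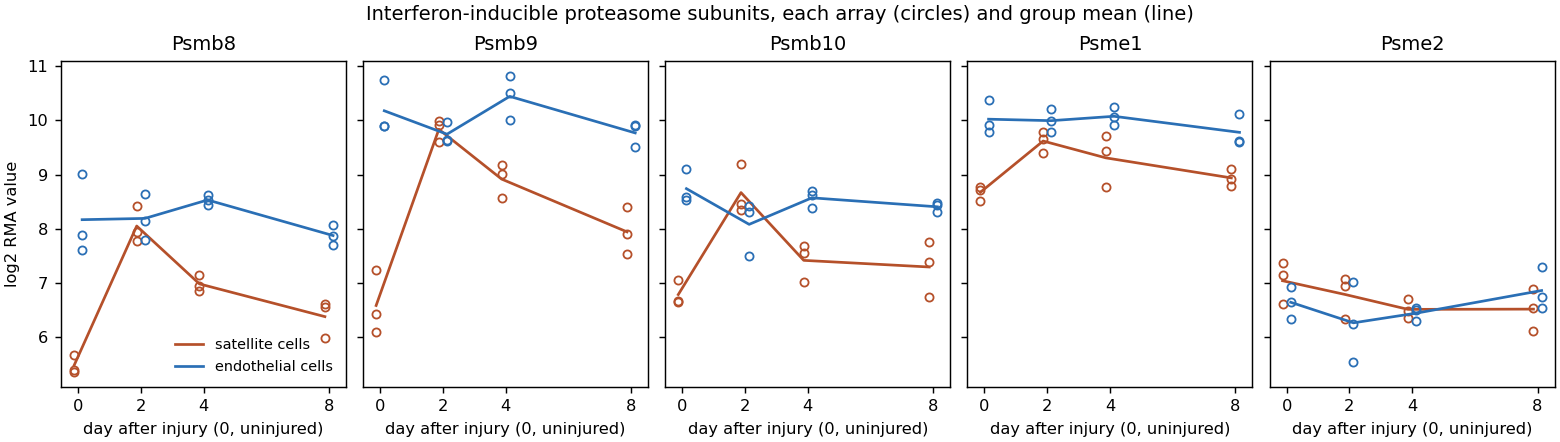
Log2 values of Psmb8, Psmb9, Psmb10, Psme1 and Psme2 on each array by day after injury, satellite cells drawn left of endothelial cells on each day, with lines joining group means. Psmb9 on the satellite cell arrays lies between 9.59 and 9.99 on day 2 and between 6.10 and 7.24 on day 0, while endothelial values stay between 9.51 and 10.82 on all days.

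In endothelial cells none of the 5 inducible members passed on any later day in limma's moderated test. At an unadjusted p under 0.05 the count was 1 of 5 on day 2 (Psmb10, lower), 0 on day 4 and 0 on day 8. At an adjusted p under 0.05, 5.08% of all genes were higher and 3.81% lower on day 2. Their share at the unadjusted threshold was not counted. Psmb9 was at 9.89, 9.89 and 10.74 on day 0, 9.64, 9.96 and 9.63 on day 2, 10.01, 10.82 and 10.50 on day 4 and 9.89, 9.90 and 9.51 on day 8. The range of each later day overlapped that of day 0. The day 4 arrays lay above those of days 2 and 8, and neither difference passed. Psmb8 was at 7.61, 7.88 and 9.02 on day 0, 7.80, 8.64 and 8.14 on day 2, 8.53, 8.45 and 8.62 on day 4 and 7.87, 8.06 and 7.70 on day 8, with the highest value on array 3 of day 0. Psmb10 was at 8.53, 8.59 and 9.10 on day 0 and 7.51, 8.43 and 8.31 on day 2, all day 2 arrays lay below all day 0 arrays, and the difference was -0.66 (SE 0.29, adjusted p = 0.182). Array 3 of day 0 was the highest of its group for Psmb8, Psmb9, Psmb10 and Psme1. Leukocyte markers were above the array median on all arrays for 15 of 19 in endothelial cells on day 2 and 6 of 19 on day 0, with means of 8.10, 5.95 and 6.87 on day 2 and 4.03, 3.99 and 4.05 on day 0.

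The cell types were then compared on each day. On day 0, 7 members were lower in satellite cells than in endothelial cells and 0 were higher, against 12.5% of all genes lower and 10.0% higher. The 7 were the inducible members Psmb9, Psmb8, Psmb10 and Psme1, the chaperone Psmd10, the ATPase Psmc1 and the catalytic subunit Psmb7. Psmb9 was at 6.10, 7.24 and 6.43 in satellite cells and 9.89, 9.89 and 10.74 in endothelial cells (log2 difference -3.59, SE 0.31, adjusted p = 1.92e-08), with no overlap. For Psmb8 the difference was -2.69 (SE 0.29, adjusted p = 5.18e-07), for Psmb10 -1.95 (SE 0.29, adjusted p = 2.7e-05), and for Psme1 -1.35 (SE 0.23, adjusted p = 0.000152). These 4 calls held in every fit that left out 1 of the 24 arrays, and without the 2 arrays that stand apart. On day 0, 13 of 19 leukocyte markers lay above the median on no satellite cell array and 10 of 19 on no endothelial array. On all 3 arrays of day 0, 2 of 19 lay above it in satellite cells and 6 of 19 in endothelial cells. Their part in these differences was not tested. The calls of Psmd10, Psmc1 and Psmb7 were each lost in at least 1 such fit, and without endothelial array 1 of day 0 the count was 4. Psmd10 had an adjusted p up to 0.143, reached among the fits without endothelial array 1 or 2 or satellite array 1 of day 0.

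On day 2 the inducible members overlapped between the cell types. Psmb9 averaged 9.83 ± 0.21 (SD, n = 3) in satellite cells and 9.74 ± 0.19 (SD, n = 3) in endothelial cells, and the difference was 0.09 (SE 0.31, adjusted p = 0.904). Psmb10 averaged 8.67 ± 0.46 (SD, n = 3) in satellite cells and 8.08 ± 0.50 (SD, n = 3) in endothelial cells, a difference of 0.59 (SE 0.29, adjusted p = 0.209). Leukocyte marker means were 10.44, 8.89 and 10.39 on these satellite cell arrays and 8.10, 5.95 and 6.87 on the endothelial arrays. Their part in this overlap was not tested. On that day 1 member was lower in satellite cells, Psmd2 at -0.68 (SE 0.19, adjusted p = 0.0176), and 0 were higher, against 6.73% of genes higher and 8.16% lower. The Psmd2 call was lost without satellite array 1 or endothelial array 2 of day 2, with adjusted p up to 0.0866.

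On days 4 and 8, 4 of the 5 inducible members were lower in satellite cells than in endothelial cells, and Psme2 did not pass (0.07 and -0.34). On day 4, 4 members were lower and 0 higher, against 9.81% of genes lower and 7.34% higher. They were Psmb8 (-1.55, SE 0.29), Psmb9 (-1.52, SE 0.31), Psmb10 (-1.15, SE 0.29) and Psme1 (-0.77, SE 0.23). On day 8 the same 4 were lower, Psmb9 most (log2 difference -1.82, SE 0.31, adjusted p = 0.000183), against 9.30% of genes lower. Psmb8 and Psmb9 kept the call on both days in every fit that left out 1 array. Psmb10 lost it without satellite array 2 of day 4 or array 3 of day 8, and Psme1 lost it on day 4 without satellite array 3 or endothelial array 2 or 3, and on day 8 without satellite array 1 or endothelial array 1. On day 8, 3 members were higher, against 9.41% of genes: Psme3 (0.90, SE 0.29), Psmb6 (0.80, SE 0.27) and Psmb2 (0.50, SE 0.16). None of these 3 calls held in every fit that left out 1 array, and leaving out endothelial array 2 of day 8 left 0.

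**Figure D2:**
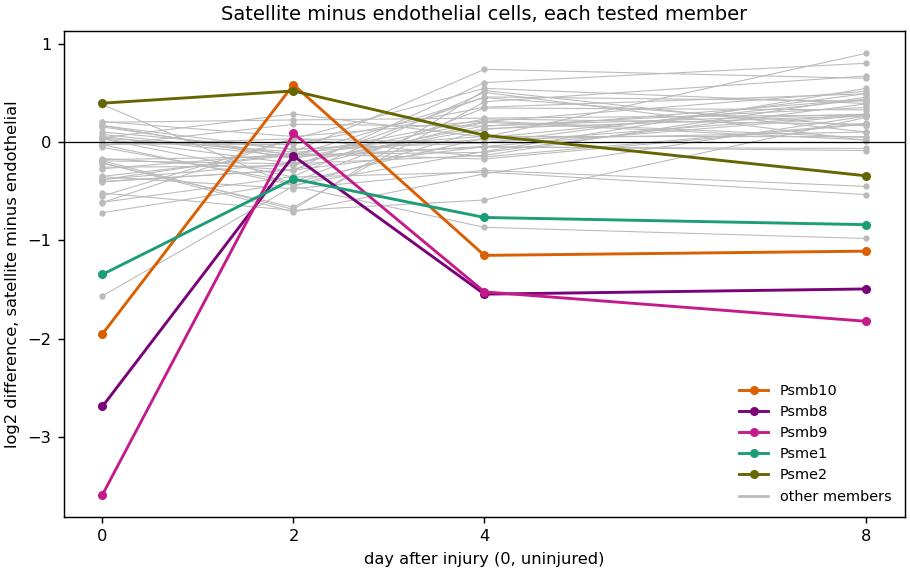
Difference in log2 value between satellite cells and endothelial cells on each day for each tested member, with the interferon-inducible members in colour and the other members in grey. Psmb9 lies at -3.59 on day 0, 0.09 on day 2, -1.52 on day 4 and -1.82 on day 8.

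The response itself, satellite minus endothelial difference from day 0, was tested as an interaction contrast. On day 2, Psmb9 (log2 difference 3.68, SE 0.43, adjusted p = 1.52e-05), Psmb8 (log2 difference 2.55, SE 0.42, adjusted p = 0.000424) and Psmb10 (log2 difference 2.54, SE 0.41, adjusted p = 0.000409) differed between the cell types, against 6.67% of genes higher and 5.20% lower in that contrast. Psme1 did not pass, at 0.97 (SE 0.33, adjusted p = 0.06). These 3 calls held in every fit that left out 1 array and without both arrays that stand apart. On day 4 Psmb9 (2.06), Psmb7 (1.16) and Psmc1 (1.12) passed, against 2.02% of genes higher and 2.25% lower, and on day 8 Psmb9 (1.76), against 1.40% higher and 0.818% lower. The Psmb9 call of day 8 was lost without any 1 of 7 arrays, and its adjusted p then reached 0.0963.

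Each immunoproteasome subunit was set against the standard subunit it replaces, on the same arrays, as the difference of their changes from day 0. The pair of Psmb8 and Psmb5 was not run, because Psmb5 was not analysed here. In satellite cells the change of Psmb9 minus that of Psmb6 was 2.78 on day 2, 1.54 on day 4 and 0.68 on day 8. The exact permutation p was 0.1 on days 2 and 4, the smallest 3 against 3 can give, and 0.3 on day 8 (adjusted p = 0.171 and 0.4 over 12 comparisons). In endothelial cells it was -1.01, 0.25 and -0.12 on those days, with exact permutation p of 0.2, 0.9 and 0.9. The change of Psmb10 minus that of Psmb7 in satellite cells was 0.71 on day 2, -0.77 on day 4 and -0.68 on day 8, each with an exact permutation p of 0.1. In endothelial cells it was -1.18, -0.41 and -0.52, with exact permutation p of 0.1, 0.5 and 0.1. None of the 12 passed after adjustment, which this design does not allow. The part of leukocytes in these differences was not tested.

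On day 2, 15 of 28 standard subunits were higher than on day 0 under each cell type label, and the other 13 did not pass. In satellite cells, 15 of the 28 tested were higher on day 2, 14 on day 4 and 5 on day 8, none lower, with medians of 0.59, 0.60 and 0.50 against a median of all genes tested near 0. Of all 43 members tested, 21 were higher on day 2 (14.7% of all genes), 17 on day 4 (9.34%) and 7 on day 8 (5.87%), and 0 were lower on any of these days (13.5%, 7.29% and 2.90% of all genes). In endothelial cells, 15 of 28 standard subunits were higher on day 2, 1 on day 4 and 0 on day 8, with medians of 0.59, 0.30 and 0.12, and over all members these were 15 (5.08% of all genes), 1 (3.75%) and 0 (1.23%), with 0 lower (3.81%, 2.75% and 1.02%). With a 2-fold minimum added to the rule, 7, 4 and 2 members were higher in satellite cells (10.9%, 6.53% and 4.38% of all genes), 2 and 0 in endothelial cells on days 2 and 4 (3.73% and 3.11%). Between the cell types that rule left 0 members lower on day 2 (6.31%) and 0 higher on day 8 (7.05%). At an unadjusted p under 0.05, 1 member was higher and 1 lower in endothelial cells on day 8, without a count over all genes. The 15 of satellite cells and the 15 of endothelial cells shared 9 subunits, which is 60% of each list. Over all genes tested the lists of 2073 and 715 shared 366, which is 17.7% of the satellite list and 51.2% of the endothelial list. Those lists held 14.7% and 5.08% of all genes, while each subunit list held 15 of 28, so the shares are not alike. Lists of 15 among 28 overlap widely by their size alone, and whether 9 exceeds that was not tested. The 9 subunits were Psma1, Psma7, Psmb2, Psmd1, Psmd11, Psmd14, Psmd2, Psmd3 and Psmd8. Over all members, the endothelial count of day 2 was 3 without endothelial array 1 of day 2, 6 without endothelial array 1 or 3 of day 0, and 7 without endothelial array 2 of day 2. The satellite count of day 4 was 9 without satellite array 1 of day 0 and 8 without satellite array 3 of day 4, and the count of day 8 was 3 without satellite array 3 of day 8 and 4 without satellite array 1 or 3 of day 0. For these members, the mean of 6 cycling markers was 7.41, 8.37 and 7.24 in satellite cells on day 2 and 4.86, 5.11 and 5.21 on day 0. The endothelial arrays had cycling means of 6.95, 7.94 and 7.27 on day 2 and 5.47, 5.08 and 5.23 on day 0. On day 8 the endothelial cycling mean was 7.63, 7.50 and 7.29. The standard subunits' mean there was 8.52, 8.24 and 8.23, against 8.27, 8.36 and 8.09 on day 0. In satellite cells the cycling mean of day 8 was 8.12, 7.82 and 8.09. The standard subunits' mean there was 8.63, 8.59 and 8.52, against 7.89, 8.24 and 8.13 on day 0. Leukocyte marker means were 10.44, 8.89 and 10.39 on the satellite arrays of day 2, against 4.19, 3.71 and 3.87 on day 0. On the endothelial arrays they were 8.10, 5.95 and 6.87, against 4.03, 3.99 and 4.05. The parts of cycling and of leukocytes in these results were not tested.

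Over the 3 later days together, 19 of the 43 members changed in satellite cells by limma's moderated F-test (31.9% of all genes) and 7 in endothelial cells (8.34%). From day 4 to day 8, 0 members passed in satellite cells (1.21% of genes higher, 0.569% lower) or endothelial cells (0.0284% and 0.0924%), and at an unadjusted p under 0.05 there were 3 lower in satellite cells and 8 lower in endothelial cells. Between days 4 and 2, 0 passed in endothelial cells (0.270% and 0.121%), and at an unadjusted p under 0.05 there were 1 higher and 10 lower. These percentages are at an adjusted p under 0.05. The share of all genes at the unadjusted threshold was not counted, so the unadjusted counts have no background beside them.

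By class, 8 of 11 non-ATPase subunits of the regulatory particle were higher on day 2 in satellite cells (14.7% of all genes) and 7 of 11 in endothelial cells (5.08%). Differences between the classes were not tested. Of 6 tested alpha ring subunits, 3 rose in satellite cells and 4 in endothelial cells on day 2. Of 5 standard beta subunits 2 rose in each, and of 6 ATPase subunits 2 rose in each. None of the 7 assembly chaperones passed on any later day in either cell type in limma's moderated test, and at an unadjusted p under 0.05 the number higher in satellite cells was 1, 2 and 1 over days 2, 4 and 8. Endothelial cells had 2 higher on day 2 and 1 lower on day 8, and the share of all genes at that threshold was not counted.

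**Figure D3:**
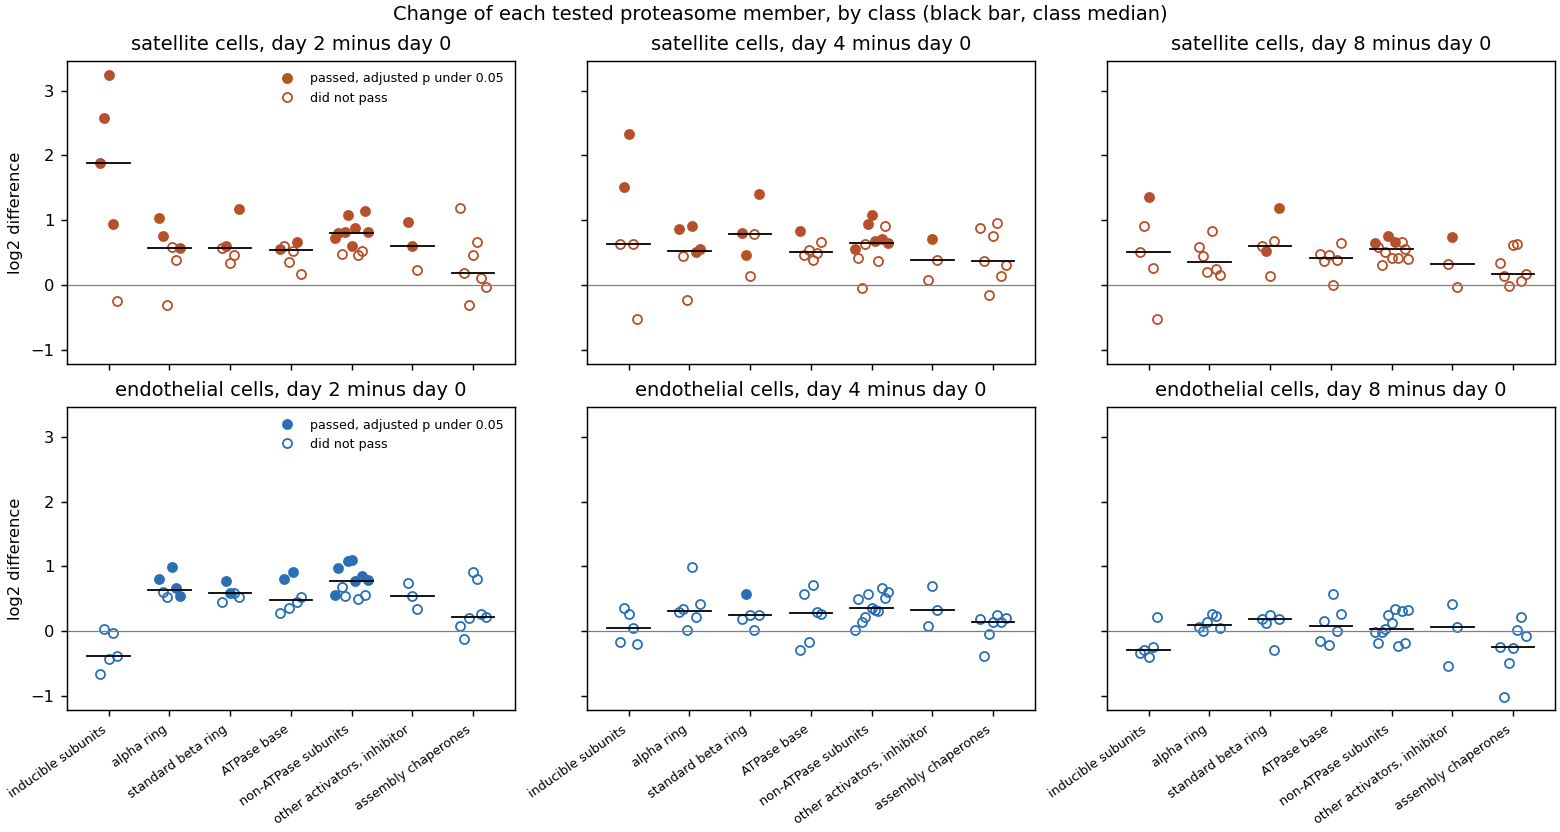
Log2 difference of each tested member with day 0, by class, in satellite cells (upper row) and endothelial cells (lower row) on days 2, 4 and 8. Filled circles passed at adjusted p under 0.05, and black bars are class medians. Psmb9 on day 2 in satellite cells is at 3.25, and no inducible member passed in endothelial cells.

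Among the standard subunits, Psmd14, the deubiquitinase of the regulatory particle lid, rose in both cell types. In satellite cells it was at 7.16, 7.28 and 7.39 on day 0, 8.58, 8.27 and 8.23 on day 2, 8.48, 8.20 and 8.00 on day 4 and 7.98, 7.95 and 8.15 on day 8, and all 3 later days lay above day 0 (log2 difference 1.08, SE 0.19, adjusted p = 0.000187 on day 2). In endothelial cells it was at 8.24, 8.53 and 8.37 on day 2 and 7.18, 7.54 and 7.17 on day 0 (log2 difference 1.09, SE 0.19, adjusted p = 0.00108). Psmd2, a scaffold subunit of the particle's base, was at 8.99, 9.12 and 8.80 in endothelial cells on day 2 and 7.77, 7.93 and 7.92 on day 0 (log2 difference 1.10, SE 0.19, adjusted p = 0.00099). In satellite cells Psmd2 was at 8.79, 8.72 and 8.77 on day 4 and 7.65, 7.79 and 7.61 on day 0, with no overlap (log2 difference 1.08, SE 0.19, adjusted p = 0.000435). Psmb2, a beta subunit with no active site, was the only member to pass in endothelial cells on day 4 (log2 difference 0.57, SE 0.16, adjusted p = 0.0301), a call lost without any 1 of the 6 arrays compared, with adjusted p up to 0.11. Psmb7, the trypsin-like catalytic subunit, in satellite cells was at 8.34, 8.42 and 8.55 on day 0, 9.28, 9.75 and 9.77 on day 2, 10.25, 9.66 and 9.59 on day 4 and 9.47, 9.68 and 9.72 on day 8. It rose by 1.17, 1.40 and 1.19 (SE 0.21 each), with no overlap, and these 3 calls held when any 1 array was left out. Psmb6, the caspase-like subunit that Psmb9 replaces, changed by 0.46 on day 2 in satellite cells and 0.58 in endothelial cells, and neither passed (adjusted p = 0.228 and 0.213).

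Psma1, an alpha ring subunit, was at 8.30, 7.98 and 8.46 in satellite cells on day 2 and 6.78, 7.44 and 7.43 on day 0 (log2 difference 1.03, SE 0.23, adjusted p = 0.00172). Psmd7, a lid subunit, also passed in satellite cells on day 2 (log2 difference 1.15, SE 0.33, adjusted p = 0.0107), and it was at 8.68, 8.76 and 8.42 on day 2. Satellite array 1 of day 0 was at 6.39 against 8.02 and 8.01 on the other arrays. Without that array the call was lost, with a difference of 0.60 and an adjusted p of 0.089. Psma4 was at 7.95, 8.53 and 8.29 on day 4 and 6.85, 7.70 and 7.47 on day 0 in satellite cells (log2 difference 0.92, SE 0.30, adjusted p = 0.038), and in endothelial cells on day 2 it differed from day 0 by 0.99 (SE 0.30, adjusted p = 0.0403). Both Psma4 calls were lost in several fits that left out 1 array. On day 8, Psmd3 (0.66) and Psmd1 (0.65) rose in satellite cells, and Psmd1 kept its call in every fit that left out 1 array. Psmc1, an ATPase of the base, was lower in satellite than in endothelial cells on day 0 (log2 difference -0.61), and its response on day 4 differed between the cell types by 1.12 (SE 0.26, adjusted p = 0.0137).

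**Figure D4:**
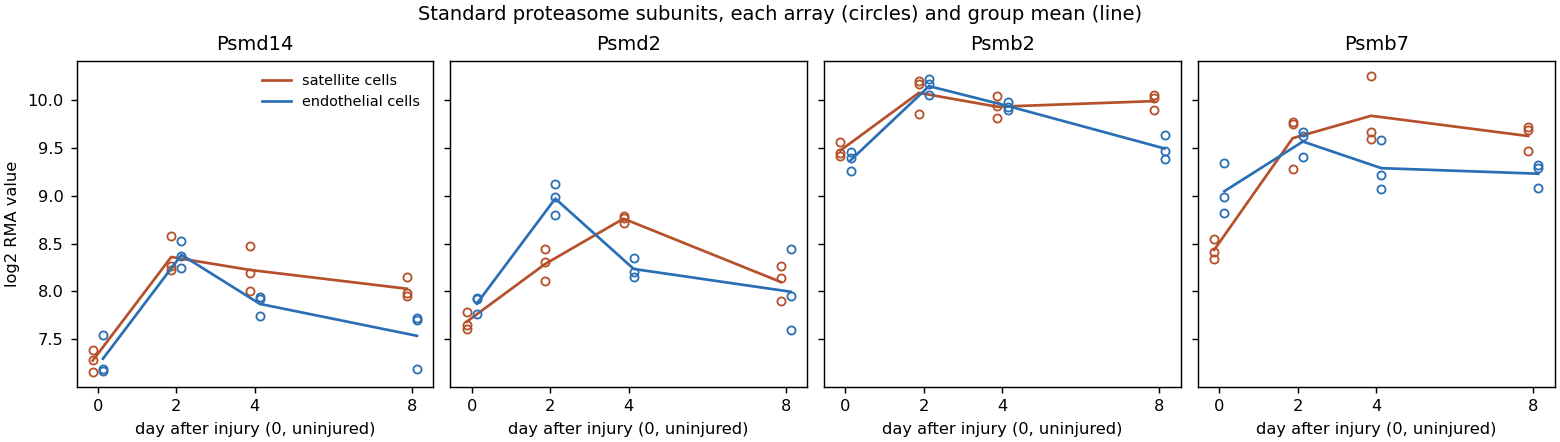
Log2 values of Psmd14, Psmd2, Psmb2 and Psmb7 on each array by day after injury, satellite cells left of endothelial cells on each day, with lines joining group means. Psmd14 in endothelial cells lies between 8.24 and 8.53 on day 2 and between 7.17 and 7.54 on day 0.

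The other activators and the inhibitor were treated apart. Psme3, the nuclear activator PA28 gamma, was at 8.61, 8.65 and 8.80 on day 2 and 7.96, 7.81 and 7.35 on day 0 in satellite cells (log2 difference 0.98, SE 0.29, adjusted p = 0.0151), and at 7.43, 7.87 and 8.06 on day 4, when it had fallen by 0.90 from day 2 (SE 0.29, adjusted p = 0.0439). Both calls were lost in several fits that left out 1 array. Psme4, the activator PA200, rose by 0.60, 0.71 and 0.73 on days 2, 4 and 8 in satellite cells (SE 0.22 each), with overlapping arrays on day 2, and these calls were also lost in several such fits. Psmf1, the inhibitor PI31, passed in no comparison. Psmd10, the chaperone known as gankyrin, was lower in satellite than in endothelial cells on day 0 (log2 difference -1.56, adjusted p = 0.0234), at 4.41, 5.68 and 5.54 in satellite cells and 6.77, 7.27 and 6.28 in endothelial cells. Psma8, a testis subunit, lay above the array median on 1 array. Psmb11, a thymus subunit, and Psma5, an alpha ring subunit, lay above it on 0 arrays, and were not tested.

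Genes that act with the proteasome were counted as lists. Of 16 partner genes tested, 7 were higher in satellite cells on day 2 (14.7% of all genes) and 0 lower (13.5%): Uchl5 (1.27), Pomp (1.23), Usp14 (0.90), Sem1 (0.92), Txnl1 (0.72), Nfe2l2 (0.64) and Vcp (0.61). Pomp is the chaperone that matures the core, and Usp14 and Uchl5 remove ubiquitin from substrates at the regulatory particle. In endothelial cells on day 2 (5.08% of all genes higher, 3.81% lower), Usp14 (1.33) and Vcp (1.25) were higher and Nfe2l1, a factor that induces proteasome genes, was lower (-0.60). Of 12 peptide loading genes, 10 were higher in satellite cells on day 2, against 14.7% of all genes. Their median difference was 1.01, beside -0.03 over all genes, and among the 10 were Tap1 (1.93), which shares its start window with Psmb9, Erap1 (1.49), H2-K1 (1.23) and B2m (0.89). On the same arrays the leukocyte marker mean was 10.44, 8.89 and 10.39 on day 2 and 4.19, 3.71 and 3.87 on day 0, and its part in these counts was not tested. On day 0, 10 of the 12 were lower in satellite cells than in endothelial cells, against 12.5% of all genes. In endothelial cells on day 2, 2 of 12 were higher and 1 lower, against 5.08% and 3.81% of all genes.

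**Figure D5:**
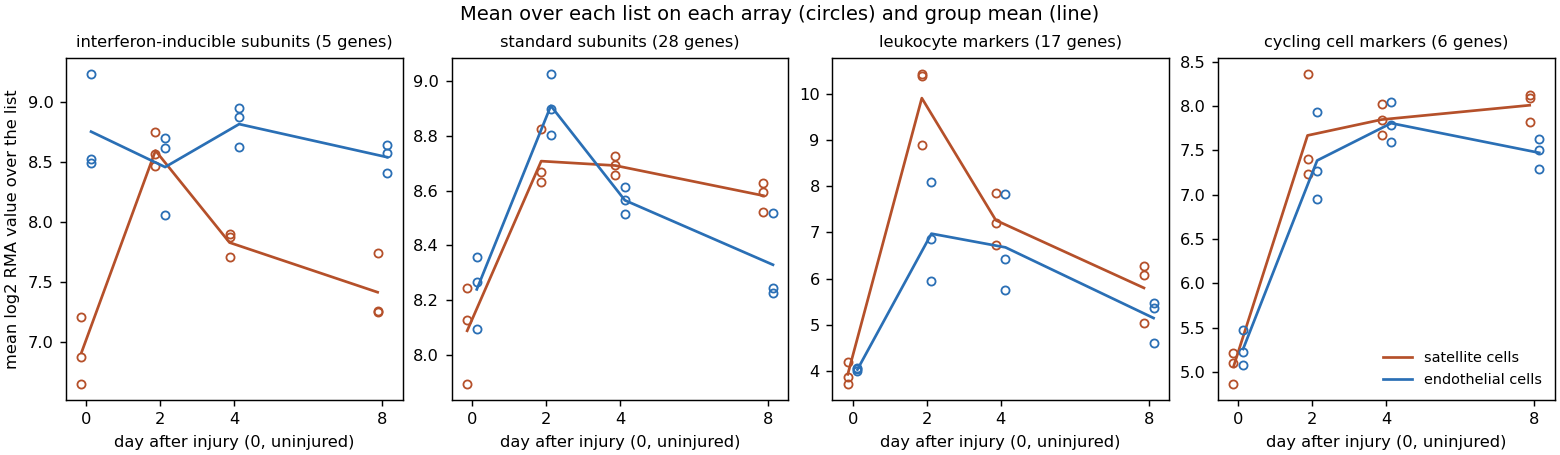
Mean log2 value over each list on each array by day after injury, satellite cells left of endothelial cells, for the interferon-inducible subunits, the standard subunits, leukocyte markers and cycling cell markers, with lines joining group means. Leukocyte markers average 8.89 to 10.44 in satellite cells on day 2 and 5.95 to 8.10 in endothelial cells on the same day.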

How the data were processed

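The authors deposited log2 values made with RMA, per the submitters' processing notes, which give no version. The genome build is not given in the sources used here. Per the labels' protocols, RNA was amplified from picogram amounts before biotin labelling, and such amplification could widen the spread of low values. Samples were grouped by titles, which match the source name on all 24 arrays. The cell type field differs from the title on 12 arrays and the time point field on 18, and these fields were not used. The running numbers of the arrays in the labels follow the days, so run order and day cannot be told apart.

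Probe sets brighter than the median of their array on 3 or more arrays were tested. One limma model (version 3.58.1, under R 4.3.3) held the 24 arrays, giving each group its own mean and leaving 16 residual degrees of freedom. Moderated tests were two-sided, with Benjamini-Hochberg adjustment over all genes tested, and a member passed at adjusted p under 0.05. A fold is printed only if both group means exceed the array median by 1 or more. The number of arrays limits the precision. The fit was tested on simulated data. Members, gene lists and tests were chosen with earlier results of these data known. The rule for named members took the inducible, catalytic, alternative and inhibitor members, and the 3 other members with the largest rise and fall among those that passed in each comparison with day 0 and of the cell types. Symbols came from the array annotation and equal the reference symbol for 46 of 46 members. Alternatives were another filter, no filter, median centring, only the compared groups in the fit, a replicate block, a 2-fold minimum and leaving out arrays. Psmb5 was not analysed here, so its comparison with Psmb8 was not made.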

Additional observations from a re-analysis of the deposited data

Results flagged for a closer look

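The responses of satellite and endothelial cells to injury differed, by limma's interaction test with Benjamini-Hochberg adjustment, for 3 inducible members on day 2. The satellite minus endothelial difference of responses was 3.68 for Psmb9 (SE 0.43, adjusted p = 1.52e-05), 2.55 for Psmb8 (SE 0.42, adjusted p = 0.000424) and 2.54 for Psmb10 (SE 0.41, adjusted p = 0.000409). For each of these genes all satellite day 2 arrays lay above those of day 0. This describes the values already tested and adds no support, and the share of all genes so separated was not counted. In endothelial cells the ranges of Psmb9 and Psmb8 overlapped. All endothelial day 2 arrays of Psmb10 lay below those of day 0, a difference of -0.66 that did not pass (adjusted p = 0.182) and that enters its difference of responses. The leukocyte marker mean was 8.89 to 10.44 in satellite cells on day 2 and 5.95 to 8.10 in endothelial cells on that day, and its part in the result was not tested.

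On day 4 the difference of responses was 2.06 for Psmb9 (SE 0.43, adjusted p = 0.00645), 1.16 for Psmb7 (SE 0.30, adjusted p = 0.0285) and 1.12 for Psmc1 (SE 0.26, adjusted p = 0.0137). Psmb7 lost its call in fits without 1 of 6 arrays, with adjusted p up to 0.0903. On day 8 it was 1.76 for Psmb9 (SE 0.43, adjusted p = 0.0327), a call lost in several fits that left out 1 array.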

How the results depend on the processing

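Of 148 results for 20 named members, 0 had opposite signs in a pair of fits where either passed, over 31 alternatives. Most alternatives refit nearly the same values, so a change of sign was unlikely from the start. Calls were lost for 20 results with only the compared groups in the fit and for 20 with the 2-fold minimum. Leaving out 1 array in turn lost a call 93 times over all such fits. With only the compared groups in the fit, the members higher than day 0 numbered 9, 5 and 1 in satellite cells on days 2, 4 and 8 and 7 in endothelial cells on day 2. The members that passed between the cell types then numbered 0 lower on day 2 and 0 higher on day 8, and for the response 1 on day 4 and 0 on day 8. With a 2-fold minimum the same satellite counts were 7, 4 and 2, the endothelial counts 2 on day 2 and 0 on day 4, and between the cell types 0 lower on day 2 and 0 higher on day 8. Without both arrays that stand apart, chosen after seeing the data, 6 were higher in endothelial cells on day 2, 0 on day 4 and 1 lower on day 8, and the response count of day 8 was 0. With the 75th percentile filter, 3 were higher in endothelial cells on day 4 and 1 in satellite over endothelial cells on day 4, as with no filter. Median centring gave a response count of 2 on day 8. Leaving out 1 array gave 14 to 24, 8 to 17 and 3 to 8 higher in satellite cells on days 2, 4 and 8, and 3 to 16 and 0 to 3 in endothelial cells on days 2 and 4. Between the cell types it gave 4 to 8 lower on day 0, 0 to 1 lower on day 2, 0 to 1 higher and 3 to 4 lower on day 4, and 0 to 3 higher and 3 to 4 lower on day 8. The response counts were 3 to 4 higher and 0 to 1 lower on day 2, 2 to 3 on day 4 and 0 to 1 on day 8. The cause of these shifts was not tested, and fits that leave out arrays or groups also hold fewer arrays. With a replicate block (correlation 0.0408) 22 members were higher in satellite cells on day 2, and no named member changed its call. Deviations from the group means correlated at -0.06 to 0.20 between same-numbered arrays of a day, over 0.1 in 4 of 12 pairs. For 13 of 24 arrays, the best correlated array among all other groups had the same number. Whether that exceeds chance was not tested. The main fit did not use the numbers as pairs.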

Other observations

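Interferon pathway genes were followed beside the members. Of 14 tested, 11 were higher on the arrays labelled satellite cells of day 2 than on day 0 (14.7% of all genes), with a median of 1.42: Irf7 (4.22), an interferon regulatory factor, Rsad2 (3.71) and Isg15 (2.95), both interferon-stimulated genes, and Ifngr1 (1.37) and Ifngr2 (2.29), which encode the interferon-gamma receptor, were among them. The leukocyte marker mean on these arrays was 10.44, 8.89 and 10.39 on day 2 and 4.19, 3.71 and 3.87 on day 0, and its part in these counts was not tested. On day 4, 3 of 14 were higher (9.34%). In endothelial cells, 1 of 14 was higher on day 2 (Ifngr2, 1.34), against 5.08% of all genes. On day 0, 10 of 14 were lower in satellite cells than in endothelial cells, with a median of -1.44, against 12.5% of all genes. Of the 4 muscle ubiquitin ligases tested, 0 passed on any later day against day 0 in either cell type by limma's moderated test. At an unadjusted p under 0.05, the higher ones numbered 0, 2 and 0 in satellite cells on days 2, 4 and 8. In endothelial cells they numbered 1, 0 and 1. The lower ones numbered 1 in each cell type on day 8. The share of all genes at that threshold was not counted.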
